A study of Mus musculus with 4 samples.

Results

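The 42 genes described here encode the initiation and elongation factors of cytosolic translation, and they were chosen by name from the known subunits and factors, out of 21631 protein-coding genes of the autosomes and the X chromosome. The choice was made with earlier results of these data known. All 42 were found in the gene table. The samples were C2C12 cells, an established mouse myoblast line that fuses into contractile myotubes in culture. They were labelled as myocytes, although the description of the series speaks of differentiated myoblasts. Chromatin was crosslinked with 1% formaldehyde, cut enzymatically and precipitated with a Deaf1 antibody, Deaf1 being a transcription factor with its own DNA-binding domain. The 2 Deaf1 ChIP samples each gave a peak list, and the 2 input samples were not analysed here. No treatment or genotype is given for any of the 4 samples, so nothing below compares biological states. Whether the replicates were grown as separate cultures is not stated, and differences between them may be technical. Peak lists hold no expression, so the cell type could only be looked at through peaks: of 7 muscle lineage genes 5 were occupied, Mymk and Mef2c not, and of 4 genes of other lineages 2 were, where 51.6% of all genes were. Counts this small say nothing of lineage.

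Replicate 1 had 65606 peaks and replicate 2 had 26503, and their read depth is not known from the lists. The fold of a peak is the authors' own ratio of signal at the summit to a local background. It ranks peaks within a list, and folds of the replicates are set side by side only as a description, since the lists differ in background and in length. A gene was counted as occupied where both replicates had a peak summit within 1 kb of the same end of its RefSeq span, the stretch from the first to the last base of all its transcript models. The pileup, the number of fragments that cover a summit, and the local background were solved from each peak's fold and p-value. Peaks of an input or IgG list were not set against these peaks. Deaf1 binding and signal that any antibody gives at open promoters cannot be told apart in these lists.

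Translation begins when initiation factors (eIFs) bring the small ribosomal subunit, the initiator tRNA and the mRNA together and find the start codon. eIF2 carries the initiator tRNA in a complex with GTP and is recharged by eIF2B. eIF3 is a large scaffold on the small subunit, and the eIF4 factors bind the mRNA near its cap and unwind it. Elongation factors (eEFs) then deliver each aminoacyl-tRNA and move the ribosome along the message. Muscle growth depends on the rate of this machinery, which the mTORC1 and stress kinase pathways control. Deaf1 is known to bind DNA through its SAND domain at the half-site TTCG.

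The sequences below are shown because they hold the start regions of members with the highest peaks, with peaks of low fold, and with none. Each runs 5′ to 3′ over the 250 bases before the RefSeq start, from RefSeq on GRCm38.p6, and capitals mark TTCG or its reverse complement CGAA. Eif5 (chr12:111537851-111538100, plus strand) and Eif4b (chr15:102073523-102073772, plus strand) had some of the highest folds. Eif4h (chr5:134639410-134639659, minus strand) had the summits of both replicates inside the stretch printed, 82 bases before its start. Eif4g3 (chr4:137993205-137993454, plus strand) had only low peaks at its start. Eef1b2 (chr1:63176581-63176830, plus strand) and Eef2 (chr10:81176381-81176630, plus strand) had no peak.
Eif5: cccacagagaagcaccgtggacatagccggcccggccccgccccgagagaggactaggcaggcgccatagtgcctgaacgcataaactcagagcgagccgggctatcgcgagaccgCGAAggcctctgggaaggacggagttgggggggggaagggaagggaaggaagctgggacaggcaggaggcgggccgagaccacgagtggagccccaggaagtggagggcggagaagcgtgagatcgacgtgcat
Eif4b: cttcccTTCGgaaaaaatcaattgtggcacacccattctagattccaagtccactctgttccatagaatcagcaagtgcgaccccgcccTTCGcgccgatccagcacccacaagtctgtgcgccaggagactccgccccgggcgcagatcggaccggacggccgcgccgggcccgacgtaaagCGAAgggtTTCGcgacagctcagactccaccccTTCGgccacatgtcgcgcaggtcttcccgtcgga
Eif4h: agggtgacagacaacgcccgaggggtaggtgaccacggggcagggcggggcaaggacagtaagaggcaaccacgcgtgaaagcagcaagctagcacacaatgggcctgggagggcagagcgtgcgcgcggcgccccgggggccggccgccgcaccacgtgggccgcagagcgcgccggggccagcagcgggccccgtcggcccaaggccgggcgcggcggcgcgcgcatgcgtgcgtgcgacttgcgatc
Eif4g3: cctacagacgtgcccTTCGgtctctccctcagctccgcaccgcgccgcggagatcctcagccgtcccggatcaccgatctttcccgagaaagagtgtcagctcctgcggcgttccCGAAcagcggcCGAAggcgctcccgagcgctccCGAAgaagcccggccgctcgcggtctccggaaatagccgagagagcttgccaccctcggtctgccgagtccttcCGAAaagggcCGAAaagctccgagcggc
Eef1b2: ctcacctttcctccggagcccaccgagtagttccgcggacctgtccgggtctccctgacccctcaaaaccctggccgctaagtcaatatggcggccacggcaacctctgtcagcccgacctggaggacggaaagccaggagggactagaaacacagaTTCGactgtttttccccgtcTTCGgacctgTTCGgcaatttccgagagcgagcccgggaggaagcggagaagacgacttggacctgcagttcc
Eef2: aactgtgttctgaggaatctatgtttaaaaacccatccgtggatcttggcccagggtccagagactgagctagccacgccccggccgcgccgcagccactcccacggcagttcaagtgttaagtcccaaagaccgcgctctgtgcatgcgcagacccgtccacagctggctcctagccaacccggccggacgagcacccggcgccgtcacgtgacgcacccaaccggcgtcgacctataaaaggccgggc
The half-site stands once in the stretch of Eif5, 5 times in that of Eif4b, 6 times in that of Eif4g3 and 3 times in that of Eef1b2. It is in neither that of Eif4h nor that of Eef2. These 6 genes were chosen by their peaks, and only at Eif4h did summits lie inside the stretch printed. Whether peaks and half-sites go together therefore cannot be read from these counts.

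Most of the translation factor genes were occupied. In all 35 of 42 were (83.3%), where 51.6% of all protein-coding genes were. All 3 eIF1, all 3 eIF2 and all 5 eIF2B genes were occupied, as were 12 of 13 eIF3 genes, 5 of 7 eIF4 genes, and 3 of 4 genes of eIF5, eIF5A, eIF5B and eIF6. Among the elongation factors and their kinase the count was 4 of 7. Taken over the initiation factors it was 31 of 35. Replicate 1 alone had a summit at an end of 39 members (61.8% of all genes did), and replicate 2 alone at 35 (52.3%). No summit stood within 1 kb of an end in either replicate at 3 members, Eif4a1, Eef1b2 and Eef2, where 37.7% of all genes had none. The members not occupied were Eif3k, Eif4a1, Eif4g3, Eif5a, Eef1b2, Eef1g and Eef2.

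The share of members was near that of genes with a CG count above the median at the start. For 33 members the table gives the 300 bases from 250 before to 50 after the start, and 29 of these windows held more CG dinucleotides than the median of 14 over all genes. Of the 29, 24 were occupied (82.8%), and of all 8284 genes with more than 14 CG 82.6% were. Of genes with 14 or fewer, 22.3% were occupied, and so were 3 of the 4 members among them. Among genes with 15 to 24 CG, 13 of 15 members were occupied, against 77.5% of all genes. Among genes with 25 or more it was 11 of 14, against 87.4%. The member windows had a median of 24 CG, against 14 over all genes. Whether the members' share is particular to translation factors was not tested. These splits by CG were made after the occupancy was known.

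**Figure D1:**
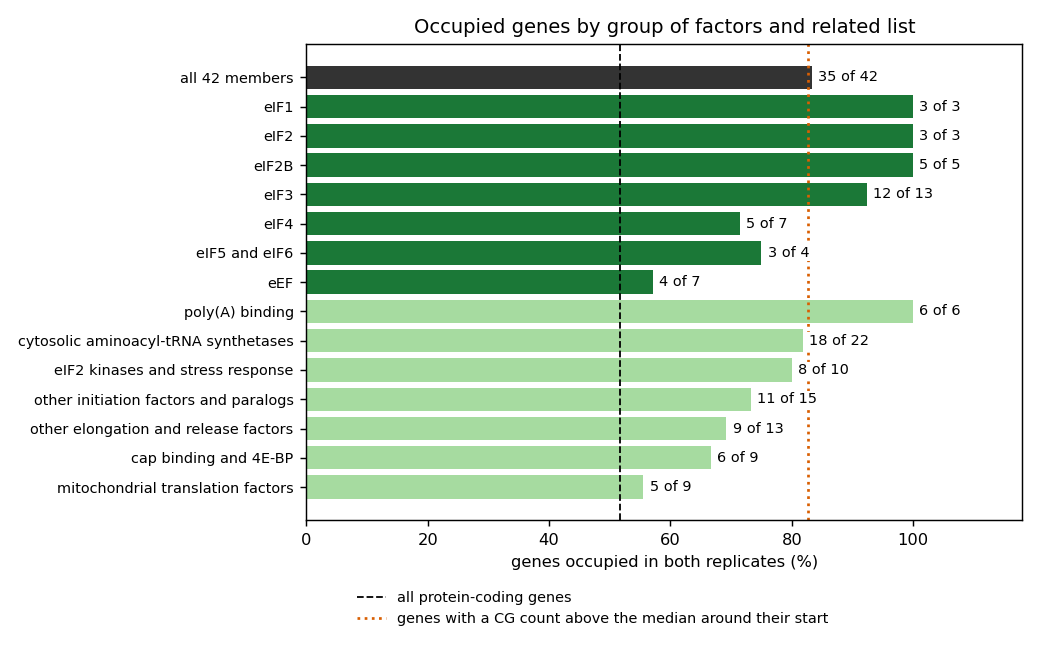
Share of genes occupied in both replicates (x axis, percent) for the 42 members, their 7 groups and 7 related lists (y axis), with counts beside the bars. The dashed line is the share of all protein-coding genes (51.6%) and the dotted line that of genes with more than 14 CG around the start (82.6%), near which the bar of all members ends.

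The signal at occupied members was much like that at other occupied genes. The median fold was 16.9 in replicate 1 and 15.2 in replicate 2, against 16.4 and 15.2 over all 11164 occupied genes. The members ran from 3.62 to 25.5 in replicate 1 and from 4.11 to 35.7 in replicate 2. Median pileups were 61 and 49 fragments, against 60 and 45 over all occupied genes. In 28 of 35 members (80.0%) the summits of the replicates lay within 100 bp of each other, as in 79.0% of all occupied genes. Across the 35 members, which share both libraries, Spearman's rho between replicates was 0.642 for fold and 0.872 for pileup. Over all occupied genes both were higher, at 0.780 for fold and 0.892 for pileup.

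**Figure D2:**
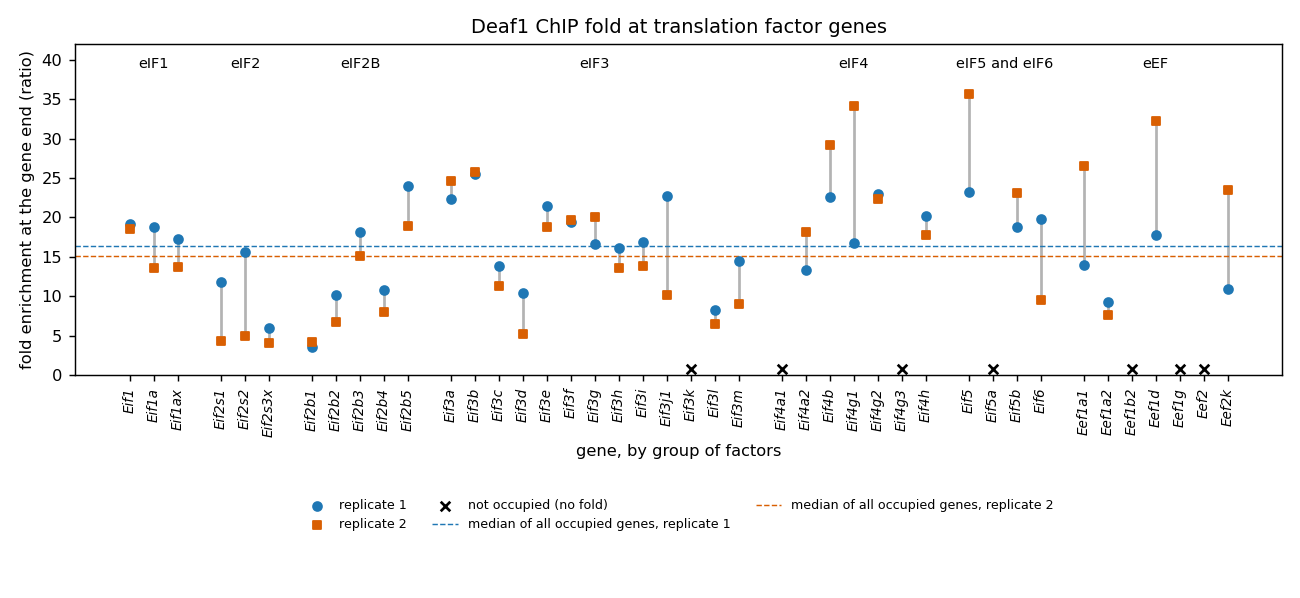
Fold enrichment (y axis, ratio) at the occupied end of each member (x axis, by group of factors), with circles for replicate 1, squares for replicate 2, and crosses for genes that were not occupied and have no fold. Dashed lines are the medians over all occupied genes; in each replicate the eIF2 genes lie under that replicate's line, and Eif5 and Eif4g1 are the highest in replicate 2.

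The eIF1 genes, whose products hold the scanning ribosome open for start codon selection, had like folds. Eif1 (chr11:100319949-100322099) had folds of 19.2 in replicate 1 and 18.6 in replicate 2. Eif1ax, the X-linked gene of eIF1A, had 17.2 and 13.7, and its autosomal paralog Eif1a had 18.8 and 13.6. The summits at Eif1a lay 65 bp outside its lower end in replicate 1 and 343 bp outside in replicate 2, so these folds came from different peaks. A further replicate 2 peak stood 36 bp outside, nearer the replicate 1 summit, with a fold of 11.5. Its pileup was 54 fragments, against 49 at the replicate 2 peak of higher fold. The peak of Eif1a is also within 1 kb of Tmed7 and cannot be given to one of them. No peak lay deeper inside any of the 3 genes in either replicate.

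The genes of eIF2 had the lowest median pileups of the 7 groups, 36 fragments in replicate 1 and 12 in replicate 2. Eif2s1 (chr12:78862072-78887010), which encodes the alpha subunit that stress kinases phosphorylate, had folds of 11.8 and 4.39. At Eif2s2, the gene of the beta subunit, the folds were 15.6 and 4.93. Eif2s3x, the X-linked gene of the GTP-binding gamma subunit, had 6.01 and 4.11. Gene by gene the pileups were 36 and 14 fragments at Eif2s1, 48 and 12 at Eif2s2, and 22 and 12 at Eif2s3x, so the replicate 2 peaks rested on few fragments. By fold in replicate 2, Eif2s1 stood above 2.28% of all occupied genes, Eif2s2 above 3.94% and Eif2s3x above 1.35%. By fold in replicate 1, the shares were 23.3% for Eif2s1, 45.1% for Eif2s2 and 1.90% for Eif2s3x. The summits at Eif2s3x were apart: the higher one of replicate 1 lay 95 bp downstream of the start and that of replicate 2 577 bp upstream, near a further replicate 1 peak with a fold of 5.80 at 531 bp. The peak of Eif2s1 is shared with Atp6v1d, a proton pump gene. With a fold of 5 or more required in both replicates, 0 of these 3 genes were occupied, where 48.8% of all genes were. With a −log10 q of 5 or more 1 was, Eif2s2, where 50.1% of all genes were.

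All 5 genes of eIF2B, the exchange factor that reloads eIF2 with GTP, were occupied, over a wide range. Eif2b5 (chr16:20498795-20509325), the gene of the catalytic epsilon subunit, had folds of 23.9 and 18.96, and Eif2b3, that of the gamma subunit, 18.2 and 15.2. Eif2b4 and Eif2b2, of the regulatory delta and beta subunits, were lower, with 10.8 and 7.96 at Eif2b4 and 10.2 and 6.74 at Eif2b2. These pairs came from different peaks. At Eif2b4 the summits lay 249 bp upstream and 155 bp downstream of the start, and at Eif2b2 196 bp downstream and 150 bp upstream. The replicate 1 peak nearest the replicate 2 summit had 9.91 at Eif2b4 and 9.99 at Eif2b2. Eif2b1 (chr5:124570214-124579131), of the alpha subunit, had the lowest replicate 1 fold of any occupied member, 3.62, with 4.203 in replicate 2. Its pileups of 63 and 51 fragments were not low. They stood over backgrounds of 16.7 and 11.4 fragments, where Eif3f had pileups of 60 and 51 over 2.13 and 1.64 and folds of 19.5 and 19.7. The Eif2b1 peak is shared with Gtf2h3, a gene of a general transcription factor, and that of Eif2b4 is shared with Snx17.

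Of the 13 eIF3 genes 12 were occupied, led by Eif3b and Eif3a. Eif3b (chr5:140419305-140443358) had folds of 25.5 and 25.8 with summits 108 and 117 bp downstream of the start. Eif3a, the gene of the largest subunit, had 22.3 and 24.7. These were above the medians of all occupied genes in both replicates, and so were Eif3f with 19.5 and 19.7 and Eif3e with 21.5 and 18.8. Eif3g, whose product contacts the scanning mRNA, had 16.6 and 20.1. Eif3j1, the gene of a loosely bound subunit, had 22.7 in replicate 1 and 10.1 in replicate 2. Its pileups were 70 and 64 fragments, over backgrounds of 2.13 and 5.42. The lowest eIF3 folds were at Eif3l, a peripheral subunit gene, with 8.29 and 6.52, and Eif3d, of the subunit that can bind the cap, with 10.4 and 5.25. Eif3c, Eif3h, Eif3i and Eif3m lay between, at 13.9 to 16.9 in replicate 1 and 9.07 to 13.9 in replicate 2. The peak of Eif3i, with summits 145 and 147 bp outside the gene, is shared with Tmem234.

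Eif3k, the gene of another peripheral subunit (chr7:28971372-28981890), was the member of eIF3 that was not occupied. In replicate 1 a single peak, of fold 4.15 and 12 fragments, stood 197 bp beyond the end where transcription finishes. Replicate 2 had none within 1 kb of the gene, and its nearest summit was 9004 bp from an end. At the start of Eif3k neither replicate had a peak.

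Of the cap-complex genes, those of the scaffold and of the helicase cofactors had high peaks. Eif4g1 (chr16:20672720-20692883), the gene of the main eIF4G scaffold, had folds of 16.8 and 34.1. Its pileups were 83 and 89 fragments, nearly alike, over backgrounds of 4.01 and 1.64. Eif4b, of a cofactor of the eIF4A helicase, had 22.5 and 29.2 at summits 609 and 604 bp downstream of the start. Eif4h, of a related cofactor, had 20.2 and 17.7. Eif4g2, of an eIF4G relative that lacks the site for the cap-binding protein, had 23.0 and 22.4. At Eif4a2, one of the genes of the helicase, each replicate had a pair of peaks: at the start with folds of 10.6 and 18.2, and 768 and 769 bp downstream with 13.3 and 6.07. By pileup the peak at the start was the higher in both replicates, with 52 and 47 fragments there and 48 and 15 at the further one.

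Among the remaining initiation factors Eif5 (chr12:111538101-111546753) had the highest replicate 2 fold of all members. Its product makes eIF2 hydrolyse GTP at the start codon. The folds were 23.2 and 35.7, and the pileup was 93 fragments in both replicates, over backgrounds of 3.05 and 1.64. Eif5b, of the GTPase that joins the ribosomal subunits, had 18.8 and 23.1 at summits 447 bp downstream of the start in both replicates. Eif6, whose product keeps the large subunit apart, had peaks at each end. The lower end had 19.8 and 9.48, 813 and 812 bp outside the gene at a peak shared with BC029722 and Mmp24, and its higher end had 12.8 and 6.07.

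The elongation factor genes were unlike one another, with 4 occupied over a wide range of folds and 3 not. Eef1d (chr15:75894796-75909784), of an exchange factor subunit, had folds of 17.8 and 32.2 at its higher end, next to Tigd5, and the widest peaks of any member at 2759 and 1938 bp. Eef1a1, of the main carrier of aminoacyl-tRNA, had 13.9 and 26.5, with pileups of 78 and 69 fragments. Eef1a2, the form of adult muscle and neurons, had 9.26 and 7.59 and pileups of 28 and 19. Eef2k, of the kinase that inhibits eEF2, had 10.9 and 23.5, with pileups of 68 and 61. At Eef1d, Eef1a1 and Eef2k, as at Eif4g1 and Eif5, the replicates differed in fold more than in pileup. Backgrounds at Eef2k were 5.34 and 1.64.

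Eef2, Eef1b2 and Eef1g were not occupied. Eef2 (chr10:81176631-81182509), the gene of the factor that moves the ribosome, had no peak inside it or within 1 kb in either replicate. The nearest summits were 12762 bp from an end in replicate 1 and 9068 bp in replicate 2. Eef1b2 (chr1:63176831-63180486), of another exchange factor subunit, had none either, and its nearest summits were 57222 and 62979 bp away. Whether a peak was called in that stretch and is missing from the lists used here cannot be told. Ndufs1, a respiratory chain gene that ends 9 bases before Eef1b2 begins, was likewise not occupied. Eef1g, of the third exchange factor subunit, had a replicate 1 peak with a fold of 6.70 and a pileup of 20 fragments, 225 bp inside its lower end, and none in replicate 2. The start window of Eef2 held 34 CG and that of Eef1b2 27, and of all genes with 25 or more 87.4% were occupied.

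**Figure D3:**
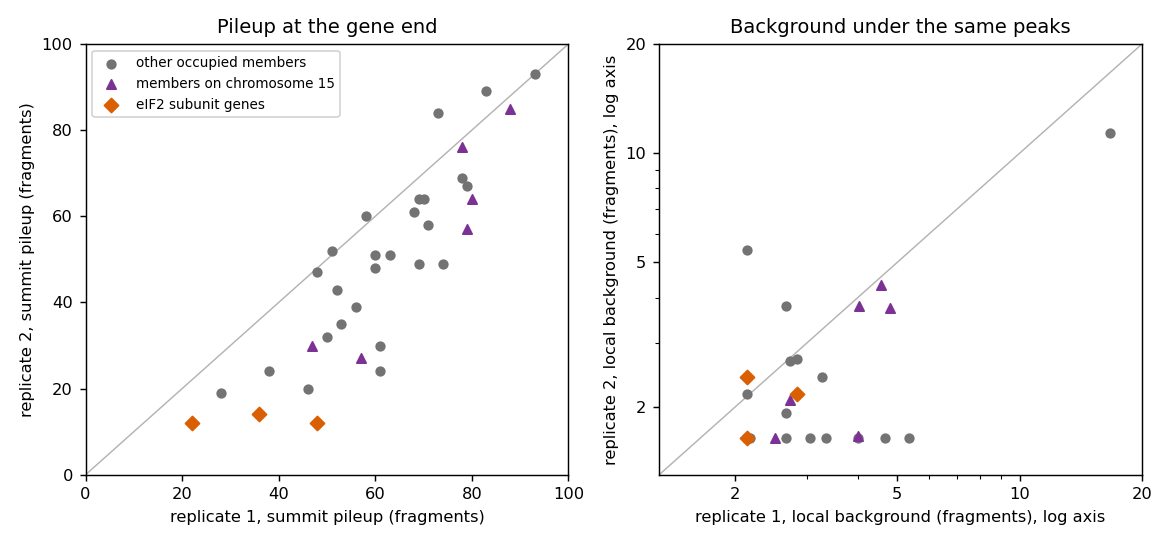
Summit pileup in fragments (left) and local background in fragments on log axes (right) at the 35 occupied members, replicate 1 on x and replicate 2 on y, with the line of equal values. The 3 eIF2 genes lie at 12 to 14 fragments in replicate 2, and the 6 members on chromosome 15 have raised backgrounds in replicate 1; Eif2b1 is the point farthest to the upper right in the right panel.

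Fold is a ratio to the background, and the background was above its lowest value at many occupied members. Backgrounds began at 2.13 fragments in replicate 1 and at 1.64 in the other. Among occupied members 20 of 35 (57.1%) in replicate 1 and 15 of 35 (42.9%) in replicate 2 stood more than 0.003 fragments above those floors, against 42.9 and 37.8% of all occupied genes. On chromosome 15 lie 6 members, namely Eif3d, Eif3e, Eif3h, Eif3l, Eif4b and Eef1d. Their background was raised in 6 of 6 cases in replicate 1 and 5 of 6 in replicate 2, against 14 and 10 of the 29 occupied members elsewhere. The same count over all occupied genes of chromosome 15 is not given here. A trait of these members therefore cannot be told from one of the chromosome. Fold was higher in replicate 2 at 13 of 35 members (37.1%), against 40.7% of all occupied genes. Pileup was higher there at 4 of 35, against 1099 of all 11164 occupied genes. The part of the background in these differences was not tested.

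Summits at translation factor genes lay mostly downstream of the start. For 27 occupied members the table gives a start, and in all 27 the start was the end with the higher fold, taking at each end the lower of the replicates' folds, as in 93.7% of all such genes. The median summit was 181 bp downstream in replicate 1 and 167 bp in replicate 2, against 90 and 81 bp over the 8294 genes occupied at their start. Downstream summits numbered 24 of 27 in replicate 1 (88.9%) and 22 of 27 in replicate 2 (81.5%), against 67.1 and 65.4% of those genes. Between 100 and 300 bp downstream stood 13 of 27 in each replicate (48.1%), against 33.2 and 31.2%. These positions were not tested against other genes.

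**Figure D4:**
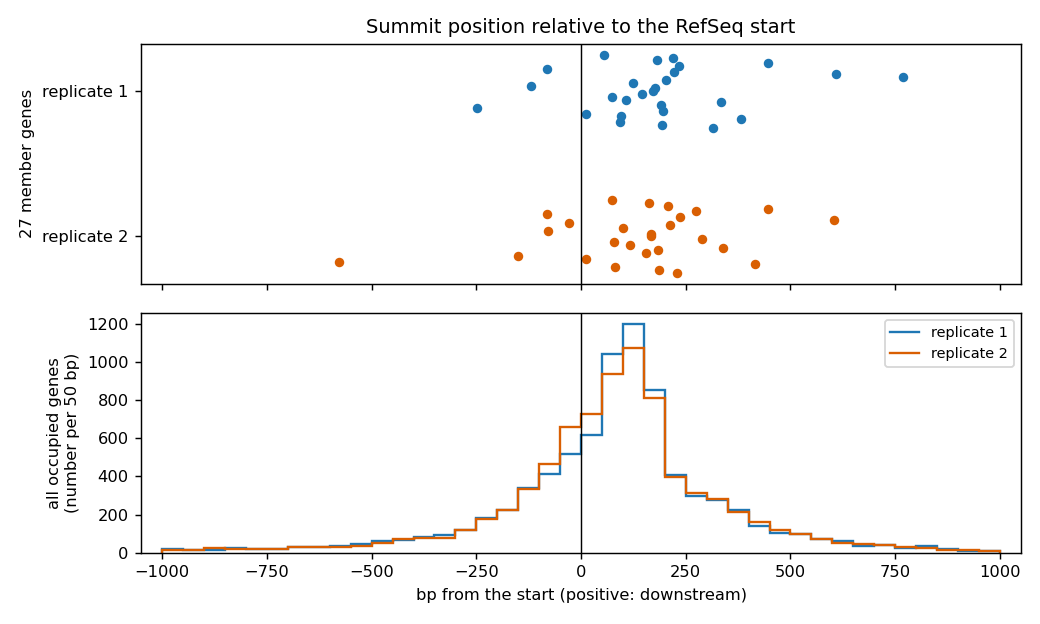
Position of the highest summit relative to the RefSeq start (x axis, bp, positive downstream) for 27 members (upper panel, 1 point a gene, vertical offsets only to part the points) and for all 8294 genes occupied at their start (lower panel, genes per 50 bp). Most member points lie to the right of 0, with medians of 181 and 167 bp.

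Occupied at both ends were 5 members (11.9%), namely Eif3b, Eif3g, Eif4g1, Eif6 and Eef1d, against 4.13% of all genes. At Eif4g1 the peak beyond the finishing end had folds of 19.2 and 13.3, higher in replicate 1 than that at the start. By pileup it was the lower in both replicates, with 59 and 34 fragments against 83 and 89 at the start. The far end of Eef1d had 21.1 and 16.7, 653 and 665 bp outside the gene and inside its neighbour Naprt. At Eif3b and Eif3g the finishing end was weaker, with 7.34 and 4.17 at Eif3b and 12.1 and 4.93 at Eif3g. A peak that another coding gene could claim within 1 kb stood at 7 of 35 occupied members (20%), against 22.9% of all occupied genes.

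With the RefSeq start in place of the span ends, 29 of the 33 members with a start were occupied (87.9%), against 54.0% of 17274 genes. Eif5a and Eif4g3 then joined the occupied members, and Eif3k, Eif4a1, Eef1b2 and Eef2 remained out. Eif5a (chr11:69916712-69921958) encodes the hypusine-bearing factor that helps ribosomes past hard peptide bonds. Its peak had folds of 20.1 and 18.96 and pileups of 62 and 49, and lay 901 bp from the higher end in replicate 1 and 1037 bp in replicate 2. The summit of replicate 1 was 28 bp from the nearest start that RefSeq lists inside the gene. That of replicate 2 was 26 bp from another of these starts. Eif4a1 (chr11:69666936-69672423), of the main helicase, had folds of 16.4 and 10.7 at summits 1021 and 1018 bp downstream of its only listed start, just beyond the limit of 1 kb. Of the occupied members, Eif6 had its highest summits 813 and 812 bp from the end, still inside that limit. With any base of the peak in the window 37 members were occupied, Eif4a1 and Eif5a among them, and 53.6% of all genes.

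Eif4g3, the gene of a further eIF4G scaffold (chr4:137991779-138207086), is the longest member and was not occupied at its span ends. Both replicates had a pair of peaks near the RefSeq start, which lies inside the span. The first lay 190 and 208 bp downstream of it with folds of 1.96 and 1.93, and the second 647 and 554 bp downstream with 3.53 and 3.09. The pileups of the first were 69 and 43 fragments over backgrounds of 34.7 and 21.8, the highest under any peak described here. Those of the second were 61 and 42 over 16.5 and 12.9. By pileup these peaks were like those of many occupied members (medians of 61 and 49), and by fold they were the lowest of any shared member peak. Replicate 1 had the rest of its 14 peaks spread along the gene, with folds of 3.51 to 7.66, and replicate 2 had none of these.

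**Figure D5:**
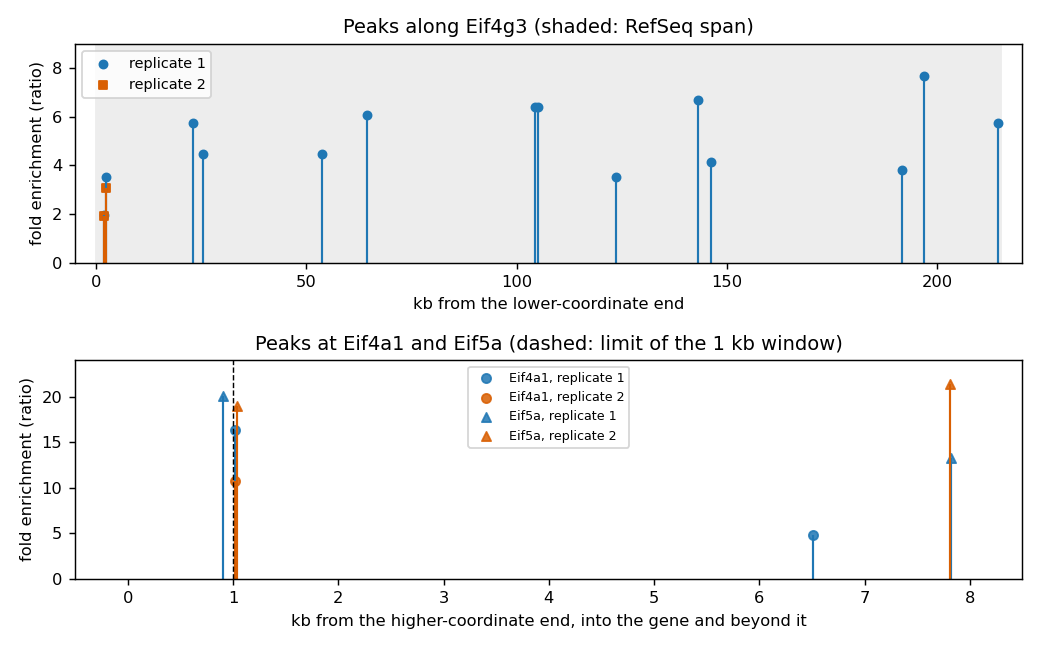
Fold enrichment (y axis, ratio) of peaks along Eif4g3 by kb from its lower-coordinate end (upper panel) and at Eif4a1 and Eif5a by kb from their higher-coordinate end, where transcription starts (lower panel), in both replicates. At Eif4g3 the 2 peaks of replicate 2 stand next to replicate 1 peaks at the left edge; at Eif4a1 and Eif5a the peaks of both replicates stand around the dashed 1 kb limit, and those at the right lie beyond the lower-coordinate ends.

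Replicate 1 had 42 peaks more than 1 kb inside the members and replicate 2 had 10. Per 10 kb of inner length that was 0.461 in replicate 1 and 0.110 in replicate 2. Over all protein-coding genes it was 0.368 and 0.111. Of the 10 in replicate 2, 9 overlapped a replicate 1 peak that was also more than 1 kb inside. They lay in 8 genes (19.05%, against 23.0% of all genes). The other, at Eif5a, overlapped the replicate 1 peak whose summit lay 901 bp from the end. Shared peaks numbered 0.0989 per 10 kb of inner length, against 0.0991 over all protein-coding genes. Without Eif4g3 replicate 1 had 29, or 0.416 per 10 kb, and the shared number was 7. The highest shared ones were at Eif4a1, given above, and Eef1a2, where the inner peak had folds of 12.5 and 8.34 at 9148 and 9066 bp from the start, above those at the start itself. Eef1d followed with 11.5 and 7.59, and then Eif3l with 10.9 and 5.69, 9163 and 9155 bp into the gene. In replicate 1 the inner peak of Eif3l was again higher by fold than the peak at its start. By pileup it was the lower there, with 33 fragments against 47. Eif3b, Eif4g1 and Eif4h had 1 each, with folds from 4.79 to 8.94 in replicate 1 and from 4.55 to 4.93 in replicate 2. In 25 of 42 members neither replicate had an inner peak, against 12030 of all 21631 protein-coding genes.

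The TTCG half-site was found in 25 of the 33 member windows of 300 bases (75.8%), counting both strands, against 49.5% of 17274 genes. It was in 21 of the 27 occupied members with a window and in 4 of the 6 not occupied. The highest counts, 6 each, were at Eif2s2 and Eif4b, which were occupied, and at Eif4g3. Eif3b, Eif3f, Eif3j1, Eif4h, Eif1ax and Eef2k were occupied with none. CTTG, with the same letters in another order, was in 30 of 33 (90.9%), against 89.8% of all genes. TTCG holds a CG, and the member windows had a median of 24 CG, against 14 over all genes. Over all genes TTCG was in 61.0% of occupied and 37.3% of other windows, and the median CG counts were 22 and 4. Since most summits lay past the end of these windows, the letters under the summits were mostly not read.

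Other genes of translation were occupied in 63 of 84 cases (75%, against 51.6% of all genes). All 6 genes of poly(A) binding were, led by Paip1, of a bridge between the tail and the cap complex, with 25.2 and 29.2, then Paip2b with 22.3 and 25.1 and Pabpc1, the main poly(A)-binding protein gene, with 25.3 and 20.2. Of the cytosolic aminoacyl-tRNA synthetase genes 18 of 22 were occupied, led by Gars with 22.7 and 26.2, Yars with 23.0 and 21.6 and Aars with 21.1 and 23.9. The peak of Yars is shared with S100pbp, and that of Aars stands at its finishing end, shared with Exosc6. Of the eIF2 kinase and stress response genes 8 of 10 were occupied. Eif2ak3, of the kinase PERK, had 23.9 and 26.5, Eif2ak4, of GCN2, had 18.9 and 17.1, and Atf5 had 20.8 and 16.3 at a peak shared with Nup62 and Il4i1b. Atf4, the transcription factor gene that eIF2 phosphorylation acts through, had no summit within 1 kb of its ends in either replicate.

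Further initiation factors and paralogs were occupied in 11 of 15 cases, led by Bzw1, of an eIF5 mimic, with 23.98 and 25.03, Eif5a2 with 22.1 and 26.5 and Denr with 24.6 and 21.2. Other elongation and release factors reached 9 of 13, with Gspt1, of the release factor eRF3, at 21.1 and 25.4 at a peak shared with LOC115488671, Etf1, of eRF1, at 20.6 and 30.7, and Pelo, of a ribosome rescue factor, at 17.7 and 19.7. Cap-binding and 4E-BP genes reached 6 of 9. Eif4enif1, of a transporter of eIF4E, had 27.1 and 30.3 at a peak shared with Sfi1 and Gm51877, and the inhibitor genes Eif4ebp1 and Eif4ebp2 had 22.3 and 22.4, and 15.1 and 20.5. Eif4e, of the cap-binding protein, had only 4.79 and 6.45. Mitochondrial translation factors were occupied in 5 of 9 cases, against 51.6% of all genes, and in 8 of 9 with a window of 5 kb, against 61.1%. They were led by Mrrf at 18.3 and 14.2 at a peak shared with Rbm18, Tsfm at 16.1 and 12.9 and Mtif3 at 9.68 and 7.21.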

How the data were processed

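Peak lists of the 2 Deaf1 ChIP samples were used; the 2 input samples were not analysed here. The submitters' processing notes name BWA, MACS2 and mm10. Which versions, parameters and control the caller had is not given in the sources used here. For each replicate 1 list was deposited, and whether any step pooled reads is not stated. The fold enrichment is the authors' deposited ratio, and so, from the same deposited lists, come a −log10 p-value and a −log10 q-value for every peak. Positions were made 1-based. Pileup and background were solved jointly from fold and p-value, taking the p-value as a Poisson tail and the fold as a ratio with 1 added on each side. Depth is unknown, and no interval is given.

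Gene spans and starts came from RefSeq tables of GRCm38.p6, the assembly behind mm10; 33 of 42 members had a start, and motifs were counted in the first window listed for a gene. TTCG and CTTG were searched on both strands. Fold per gene is the highest at the end where the lower of the replicates is highest. No test was made, since there is 1 condition and the members and lists were chosen with earlier results of these data known. Named were the 3 highest members of each group or list by the lower fold, every member not occupied, the 2 highest and 2 lowest ratios of replicate 2 to replicate 1, and the inner peaks highest in number and fold; further members were named after their values were seen. The splits by CG count were added after the calls were known. The calls were checked on planted peaks. Alternatives were other windows, thresholds, single replicates and starts. Python 3.11.15, pandas 2.3.3, NumPy 2.4.6 and SciPy 1.17.1 were used.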

Additional observations from a re-analysis of the deposited data

How the results depend on the processing

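No paired analysis was possible because the ChIP samples form 1 group, and for the inputs that carry the same numbers no peak list was used. Occupied members numbered 31 to 38 of 42 over the alternatives, lowest where a fold of 5 was required and highest with windows of 2 or 5 kb, 35 to 39 in single replicates, and 29 of 33 by the RefSeq start. All genes reached 43.2% (500 bp window) to 61.8% (replicate 1 alone), and the members' share was the higher in each of these alternatives. The mean of the replicates' median folds at occupied members was 16.0. It was 17.5 with a −log10 q of 5 or more and 18 with a fold of 5 or more, settings that by construction drop weak peaks, and 15.2 to 16.9 over the single replicates. Eif2s1 and Eif2s3x lost their call under both thresholds, and Eif2s2 and Eif2b1 under that on fold. With a 500 bp window Eif4b, Eif4g2 and Eif2s3x lost theirs, and Eif2s3x also with lists of equal length. Genes of the other lists numbered 53 to 72 of 84, and 51 of the 64 with a RefSeq start. Shared peaks inside members, 9 in number, fell to 5 when summits had to lie over 2 kb from the ends and to 4 with a fold of 5 or more; single replicates gave 10 to 42. Low pileups, such as 12 fragments, limit the weakest calls.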
